A study of Mus musculus with 5 samples.

Results

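The Ikaros family is a group of 5 zinc finger transcription factor genes, Ikzf1 (Ikaros), Ikzf2 (Helios), Ikzf3 (Aiolos), Ikzf4 (Eos) and Ikzf5 (Pegasus). Their RNA was measured in common lymphoid progenitors (CLPs), bone marrow cells that give rise to lymphocytes. The members were fixed by name, as 5 of the 55487 gene identifiers counted, and all 5 were found. The cells were sorted from mouse bone marrow as negative for lineage markers and positive for CD127 and Flt3. Of 5 bulk RNA-seq libraries, 3 came from mice labelled SF1, with SclCre and JAK2-V617F, an activated form of a cytokine receptor kinase, and 2 from wild-type (WT) mice. Both groups had received tamoxifen and were taken 16 weeks later. SclCre lines express Cre recombinase from regulatory sequence of the stem cell gene Scl (Tal1), so the progeny of recombined stem cells carry the mutant. The sources used here give neither the ages of the mice, nor whether WT mice carried SclCre, nor whether each library stands for a single mouse. The p-values therefore reflect only how far these 5 libraries vary, which may be technical variation.

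Ikaros proteins bind DNA through a block of zinc fingers near the amino end and pair with each other through fingers at the carboxyl end. Members can therefore form mixed dimers, and splice forms without DNA-binding fingers interfere with the full-length proteins. They recruit chromatin complexes, above all the nucleosome remodelling and deacetylase complex NuRD, to activate or repress genes. Ikaros is needed for lymphoid development and is a tumour suppressor in B-cell leukaemia. Aiolos is known from later B-cell stages, and Helios from stem cells and regulatory T cells.

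The coding sequences of the members were compared to show how close the genes are and how much sequence their reads could share. In the longest coding transcript of each gene (GENCODE M21, GRCm38), the pattern of paired cysteines and histidines of a zinc finger was found 5 times in Ikzf1 to Ikzf4 and 4 times in Ikzf5. The pattern had a set spacing, so fingers spaced otherwise were not counted, and these may not be full finger numbers. The first set below is the second finger of Ikzf1 to Ikzf4, a part of the DNA-binding block, with the codons of the cysteines and histidines in capitals. It lies in Ikzf1 at chr11:11754024-11754086 (exon 6, plus strand), Ikzf2 at chr1:69570581-69570643 (exon 5, minus strand), Ikzf3 at chr11:98488940-98489002 (exon 5, minus strand), Ikzf4 at chr10:128640229-128640291 (exon 5, minus strand). Between these 4 genes, 76.2 to 84.1% of its 63 bases were identical, with 51 of 63 bases the same in Ikzf1 and Ikzf2.
Ikzf1: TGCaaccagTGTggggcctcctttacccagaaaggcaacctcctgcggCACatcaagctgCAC
Ikzf2: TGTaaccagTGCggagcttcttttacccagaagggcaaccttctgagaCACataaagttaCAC
Ikzf3: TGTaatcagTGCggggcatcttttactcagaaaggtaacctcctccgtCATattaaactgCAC
Ikzf4: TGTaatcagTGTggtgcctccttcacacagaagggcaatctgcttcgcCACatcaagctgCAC

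The next set is the last finger found in Ikzf1, Ikzf2 and Ikzf5, the members with enough counts to be tested. It is at the carboxyl end, through which the proteins pair. It lies in Ikzf1 at chr11:11769411-11769473 (exon 9, plus strand), Ikzf2 at chr1:69538870-69538932 (exon 8, minus strand) and Ikzf5 at chr7:131391739-131391801 (exon 4, minus strand). Over this finger, 82.5% of 63 bases were identical between Ikzf1 and Ikzf2, and Ikzf5 shared 68.3% with each of them. The longest run of identical bases between any 2 whole coding sequences was 26, between Ikzf1 and Ikzf3, and it was 17 between Ikzf1 and Ikzf2. The sources used here do not state the read length.
Ikzf1: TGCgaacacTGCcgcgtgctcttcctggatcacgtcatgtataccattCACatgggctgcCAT
Ikzf2: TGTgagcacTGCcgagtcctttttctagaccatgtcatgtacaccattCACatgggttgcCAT
Ikzf5: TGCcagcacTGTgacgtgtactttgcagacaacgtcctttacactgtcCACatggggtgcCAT

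Total counts ran from 8894288 to 20424296 per library, with WT replicate 1 the deepest, and 20600 to 22749 genes per library were detected. A single count was worth 0.0503 to 0.114 CPM (counts scaled for library size, with TMM factors). Values are given below in the order of the replicate numbers, which follow the labels. Jak2 was at 68.1, 67.8 and 63.3 CPM in SF1 and at 58.4 and 35.4 CPM in WT (edgeR adjusted p = 0.104), and a gene's total cannot tell the mutant from the normal allele. Both genes of the positive sort were abundant, with Flt3 between 1511 and 1700 CPM and Il7r, which encodes CD127, between 331 and 465 CPM. Cd3e of T cells was at 0 to 0.114 CPM and Ms4a1 (CD20) of mature B cells at 0 to 0.438 CPM. The summed level of 12 neutrophil and monocyte markers was 2393 to 6059 CPM in SF1 and 1101 to 1412 CPM in WT. Of this sum, Mpo (edgeR adjusted p = 0.857) made up 774 to 990 CPM in SF1 and 779 and 988 CPM in WT. The median log2 fold change of these markers was 3.02, against 0.02 over all genes tested. In such bulk samples, fewer cells of a type and less RNA per cell cannot be told apart.

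Ikzf2 was higher in SF1, about double its WT level, while Ikzf1 and Ikzf5 did not pass the test and Ikzf3 and Ikzf4 had too few counts to be tested. Of the 3 members that passed the filter on low counts, 1 was called, as higher, by edgeR's quasi-likelihood test (Benjamini-Hochberg adjusted p under 0.05 over 14423 genes). In the same fit, 16.5% of all genes tested were called, 6.77% as higher and 9.74% as lower. So few members give no share to set against that background, and the members are described one by one.

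**Figure D1:**
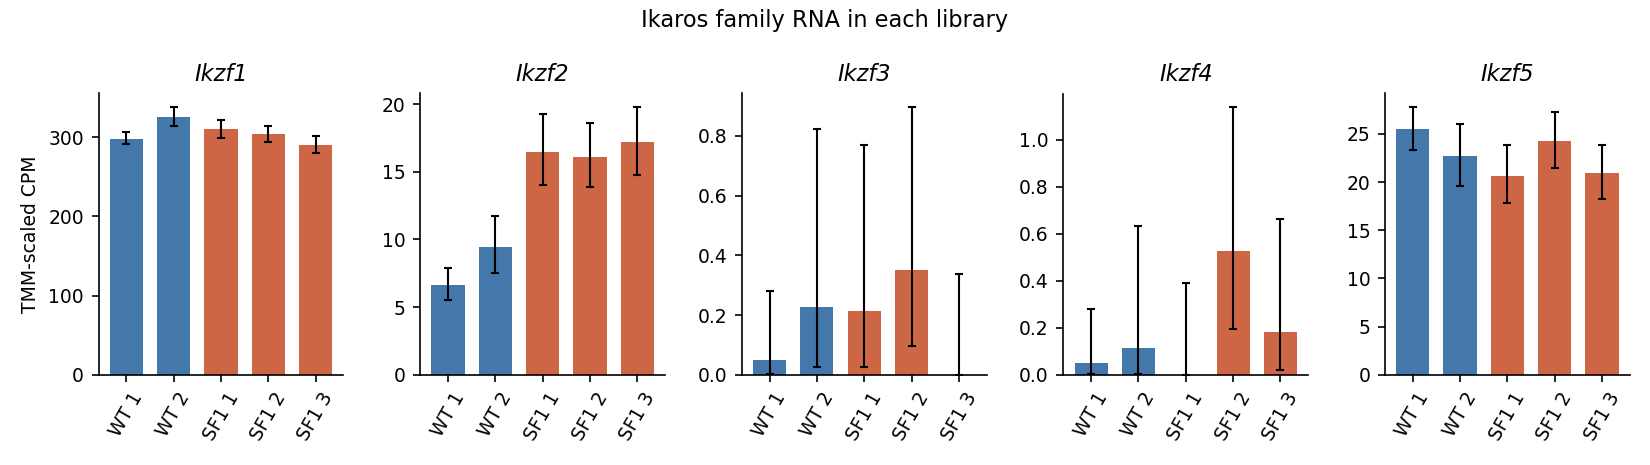
RNA of each Ikaros family gene in the 2 WT (blue) and 3 SF1 (orange) libraries, as TMM-scaled CPM on separate axes that start at 0. Whiskers are 95% Poisson intervals of the count. Ikzf2 is at 6.64 and 9.45 CPM in WT and between 16.1 and 17.2 CPM in SF1, while the bars of the other 4 genes overlap between the groups.

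Ikzf1, the founding member, is ENSMUSG00000018654 on chromosome 11 (11685003 to 11772926, plus strand). It was read at 310, 304 and 290 CPM in SF1 and at 298 and 325 CPM in WT. The groups overlapped, with both the highest library and one of the lower ones from WT. The means were 302 ± 10.2 CPM (SD, n = 3) in SF1 and 312 ± 19.2 CPM (SD, n = 2) in WT. The log2 fold change of SF1 over WT was -0.05 (SE 0.08, edgeR adjusted p = 0.723), with a 95% interval from -0.22 to 0.13. That interval spans 0.856 to 1.09 times the WT level. Ikzf1 had a higher mean CPM than 96.6% of the genes tested, with 2857 to 5927 counts per library. The counts sum all splice forms, so the balance of full-length and DNA-binding-deficient forms is not measured here.

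Ikzf2, which encodes Helios, is ENSMUSG00000025997 on chromosome 1 (69531214 to 69687245, minus strand). It was at 16.5, 16.1 and 17.2 CPM in SF1, from 155, 184 and 187 counts. The WT libraries were at 6.64 and 9.45 CPM, from 132 and 83 counts. Every SF1 library was above both WT libraries, as was so in one direction or the other for 49.0% of the genes tested. The 95% Poisson intervals of the single libraries, which cover counting error only, had lower ends of 13.9 to 14.8 CPM in SF1 and upper ends of 7.88 and 11.7 CPM in WT, so they did not overlap between the groups. Ikzf2 rose 2.10-fold, from 8.05 ± 1.99 CPM (SD, n = 2) to 16.6 ± 0.545 CPM (SD, n = 3), with a log2 fold change of 1.07 (SE 0.20, 95% interval 0.62 to 1.52, edgeR adjusted p = 0.008). The fitted change was larger in size than that of 93.1% of the genes tested. Without WT replicate 1, the lower and deeper of the WT libraries, the log2 fold change was 0.81 and the call was lost (edgeR adjusted p = 0.0696). Without WT replicate 2 it was 1.31 (edgeR adjusted p = 0.00707).

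Annotated genes that overlap Ikzf2 were checked, since the library chemistry does not mark the strand. The antisense gene Gm29114 shares 144 exon bases with Ikzf2, 1.24% of the Ikzf2 exons, and had 0 to 4 counts per library. Gm29112, a non-coding gene within an intron on the Ikzf2 strand, shares no exon base with it. Its counts were 3, 14 and 27 in SF1 and 4 and 0 in WT (edgeR adjusted p = 0.0608). Gm28112, also within an intron on that strand, shares no exon base with Ikzf2 and had 0 to 4 counts per library. In GENCODE M21, reads within the exons of these intronic genes thus lie outside the Ikzf2 exons. The annotation release used for the counts is not stated, so their part in the Ikzf2 count was not tested further.

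Ikzf5, which encodes Pegasus, the member least like the others in sequence, is ENSMUSG00000040167 on chromosome 7 (131388652 to 131410521, minus strand). It was at 20.6, 24.3 and 20.9 CPM in SF1 and at 25.5 and 22.7 CPM in WT. The groups overlapped, since SF1 replicate 2 lay between the WT libraries. The log2 fold change was -0.14 (SE 0.14, edgeR adjusted p = 0.538), with a 95% interval from -0.46 to 0.18. Ikzf5 shares 4652 of its 5721 exon bases, 81.3%, with Pstk, a selenocysteine synthesis gene on the opposite strand. Pstk was at 33.7, 36.4 and 33.1 CPM in SF1 and at 35.6 and 29.2 CPM in WT (edgeR adjusted p = 0.713). Gm44624, also on the opposite strand, shares 183 bases and was at 1.28 to 2.51 CPM. Reads in the shared parts cannot be assigned to either strand, so the level of Ikzf5 is uncertain.

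Ikzf3, which encodes Aiolos, is ENSMUSG00000018168 on chromosome 11 (98464902 to 98546031, minus strand). It had 2, 4 and 0 counts in SF1 and 1 and 2 counts in WT. Ikzf4, which encodes Eos, is ENSMUSG00000002578 on chromosome 10 (128630843 to 128645991, minus strand). It had 0, 6 and 2 counts in SF1 and 1 count in each WT library. No library exceeded 0.525 CPM for either gene. A count of 0 allows up to 3 counts as a one-sided limit, which is 0.276 CPM for Ikzf3 in SF1 replicate 3 and 0.319 CPM for Ikzf4 in SF1 replicate 1. The two-sided intervals drawn in the plot of CPM by library end at 0.339 and 0.392 CPM there. A difference between the groups was not detectable for either gene at this depth, and no fold change is given.

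To compare the members with each other, CPM was divided by the length of the merged exons of each gene (RPKM, CPM per kilobase). Ikzf1 was the most abundant member in every library, at 52.2 ± 1.76 RPKM (SD, n = 3) in SF1 and 54.0 ± 3.32 RPKM (SD, n = 2) in WT. Ikzf5 followed at 3.83 ± 0.355 and 4.21 ± 0.352 RPKM, and Ikzf2 at 1.43 ± 0.0469 and 0.693 ± 0.171 RPKM. Ikzf3 and Ikzf4 came last, at no more than 0.0877 RPKM in any library, and their order could not be told from so few counts. This order of Ikzf1, Ikzf5 and Ikzf2 held in all 5 libraries, with the uncertainty of Ikzf5 given above.

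**Figure D2:**
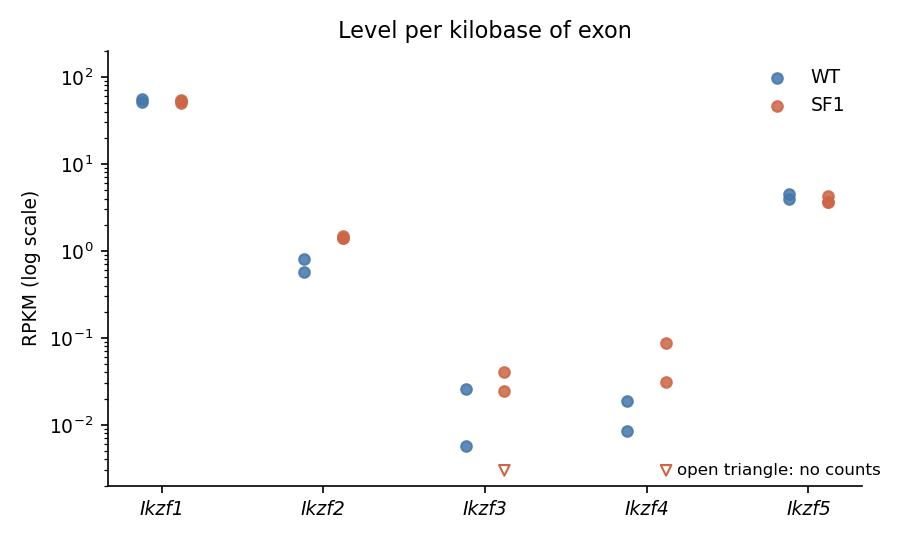
RPKM of each Ikaros family gene on a log axis, 1 point per library (blue WT, orange SF1), with open triangles at the bottom for libraries without a count. Ikzf1 lies between 50.3 and 56.3 RPKM in all 5 libraries, Ikzf2 between 0.572 and 1.48 RPKM, and Ikzf3 and Ikzf4 under 0.1 RPKM.

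As shares of the family RNA, Ikzf2 did not overlap between the groups, while Ikzf1 and Ikzf5 did. In CPM, 49.0% of all genes tested did not overlap either, and the share rests on the same Ikzf2 counts. Ikzf1 made up 91.4, 90.1 and 90.7% of the summed RPKM of the 5 genes in SF1 and 91.1 and 92.1% in WT. The Ikzf5 length used here includes the 4652 of 5721 exon bases shared with Pstk, and whether reads there were counted is not known. If they were left out, the Ikzf5 share is too low and the other shares are too high. The Ikzf2 share was 2.42, 2.38 and 2.67% in SF1 and 1.01 and 1.33% in WT, a difference of 1.32 percentage points (exact permutation test, two-sided, p = 0.1, n = 3 and 2). That p is the smallest that the 10 ways of splitting 5 libraries allow. Per length, Ikzf1 exceeded Ikzf2 by 37.8, 37.9 and 34.0 times in SF1 and by 90.3 and 69.2 times in WT. All 3 SF1 ratios were thus below both WT ratios. The ratio of Ikzf1 to Ikzf5, with the same uncertainty of Ikzf5, was 14.9, 12.4 and 13.8 in SF1 and 11.6 and 14.2 in WT. It overlapped between the groups.

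**Figure D3:**
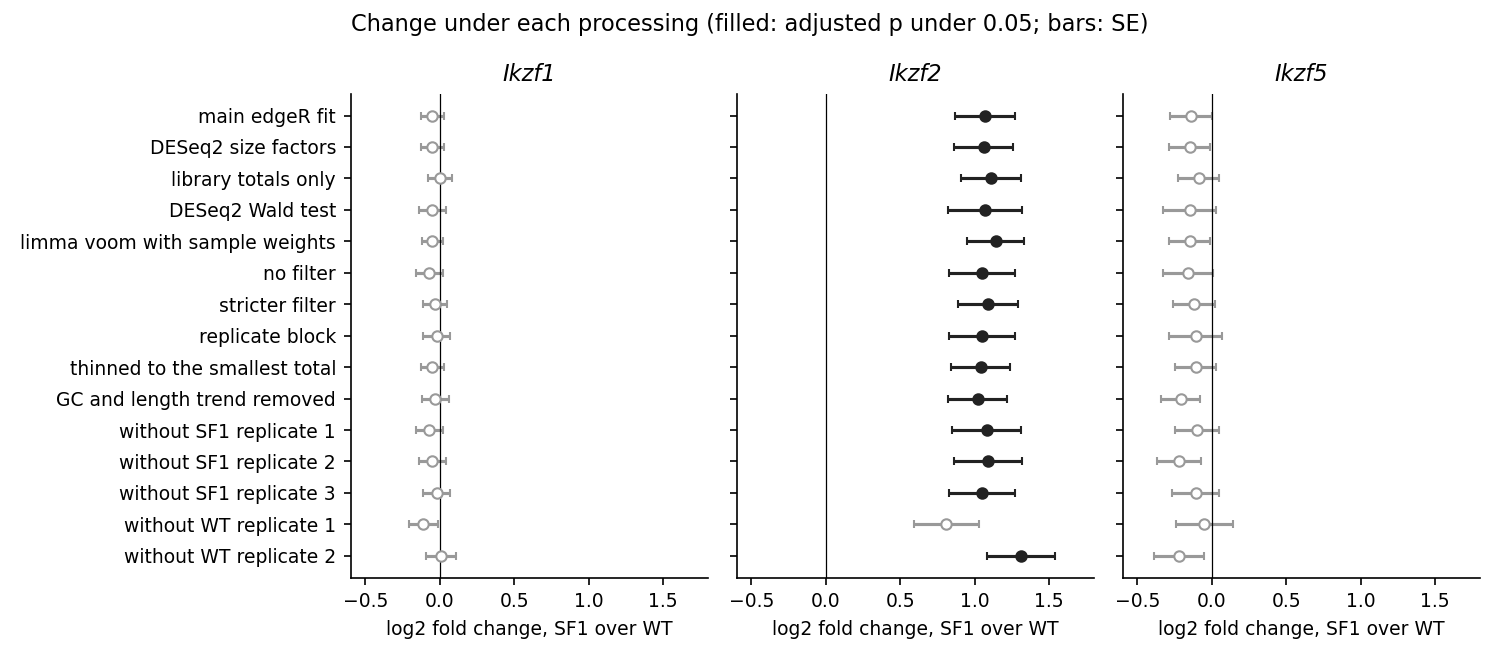
Log2 fold change of SF1 over WT for the 3 members tested, with SE, under the edgeR fit reported and 14 other processings or subsets of libraries. Filled points have an adjusted p under 0.05. Ikzf2 ranges from 0.81 to 1.31 over the alternatives and is called in 13 of 14, while Ikzf1 stays between -0.11 and 0.01 and Ikzf5 between -0.22 and -0.05.

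The profile of each member over the 5 libraries was compared with 10007 named genes of at least 5 CPM, by the root mean square distance of log2 CPM after removing each gene's mean. Nearest to Ikzf2 were Ubn2 (distance 0.0637), Ly6a (0.0735) and Acvr1b (0.0738). Ly6a, the gene of the surface antigen Sca-1 of stem cells, was at 75.8, 75.8 and 77.6 CPM in SF1 and at 33.7 and 40.3 CPM in WT. Ubn2, a gene of a histone chaperone complex, was at 82.1, 81.8 and 80.6 CPM in SF1 and at 37.1 and 47.8 CPM in WT. In each of these 2 genes, as in Ikzf2, the SF1 libraries were nearly level and WT replicate 1 was the lowest. That likeness follows from how the genes were picked, so it adds nothing to the Ikzf2 result. Nearest to Ikzf1 were Retreg1 (0.0130), Terf2ip (0.0163) and Cops8 (0.0180), and nearest to Ikzf5 were Atg4c (0.0229), Dus3l (0.0237) and Xrn2 (0.0244). None of these 6 genes was called, with edgeR adjusted p-values from 0.579 to 0.804.

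Helios RNA is known from stem cells, T cells and innate lymphoid cells, so markers of those cells are given beside Ikzf2. The counts of markers are to be read beside the shares of all genes tested, 6.77% called as higher and 9.74% as lower. Of 12 stem and multipotent progenitor markers, 10 were tested, with 2 higher, among them Ly6a, 1 lower (Kit) and 7 not called. Their summed level was 1442 to 1555 CPM in SF1 and 1444 to 1465 CPM in WT. Within this sum, Cd34, not called, was at 897 to 959 CPM in SF1 and at 784 and 841 CPM in WT. Kit went the other way, at 212 to 252 CPM in SF1 and at 366 and 315 CPM in WT. Of 12 T-lineage markers, 7 were tested and 1 was higher, Cd5, by 2.22-fold (edgeR adjusted p = 0.0184). The T-lineage sum was 312 to 338 CPM in SF1 and 248 to 292 CPM in WT, of which Lck alone made up 204 to 282 CPM. Bcl11b, a defining T-cell factor, had no count in any library, and Cd3e had none in SF1 and 1 in each WT library, too few to be tested. Of 12 natural killer and innate lymphoid markers, 7 were tested and 2 were higher (Klrd1 and Id2), with a sum of 219 to 242 CPM in SF1 and 198 to 205 CPM in WT. Gzmb was at 0 in all libraries. Ncr1 had 2 counts in WT replicate 1 only, Eomes 3 counts in SF1 replicate 3 only, and Tbx21 1 count in SF1 replicate 2 only. These genes had too few counts to be tested. Of the dendritic markers, 6 of 10 tested were higher, with a sum of 1955 to 2447 CPM in SF1 and 1186 to 1319 CPM in WT, and of the neutrophil and monocyte markers 11 of 12. The part of any of these cells in the Ikzf2 difference was not tested.

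Among the chromatin partners of Ikaros proteins, Mbd2 was higher in SF1 and Chd4 and Mta3 were lower. Of 17 genes of NuRD and of the SIN3 and CtBP corepressors, all tested, 1 was higher, 2 were lower and 14 were not called, with a median log2 fold change of 0.00 against 0.02 over all genes tested. That is 3 of 17 called, near the 16.5% of all genes tested, so the count says nothing particular about this list. Mbd2, the methyl-DNA-binding subunit of one form of NuRD, was at 44.2, 89.6 and 84.8 CPM in SF1 and at 12.5 and 13.4 CPM in WT. In SF1 it rose 5.66-fold (log2 fold change 2.50, SE 0.29, edgeR adjusted p = 0.0011), and SF1 replicate 1 stood apart below the other SF1 libraries but above both WT libraries. Mbd3, the alternative subunit, was at 201 to 215 CPM in SF1 and at 201 and 212 CPM in WT (edgeR adjusted p = 0.979). Chd4, the Mi-2 beta remodelling ATPase that Ikaros binds, fell 1.25-fold (edgeR adjusted p = 0.0444), and the subunit gene Mta3 fell 1.38-fold (edgeR adjusted p = 0.0227). The Chd4 call was lost under 8 of 14 alternatives, among them the GC and length correction (edgeR adjusted p = 0.236) and the fits without WT replicate 2 (0.161), WT replicate 1 (0.0979), SF1 replicate 2 (0.118) and SF1 replicate 3 (0.136). The Mta3 call was lost in the same 4 fits with a library left out (adjusted p from 0.0595 to 0.0968) and under that correction (0.065). In 3 of these fits, those without WT replicate 1, SF1 replicate 2 and SF1 replicate 3, the list had 1 gene called.

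Genes described as acting on Ikaros protein stability and phosphorylation went both ways. In human cells, CRBN, with DDB1, CUL4 and RBX1, forms the ubiquitin ligase that destroys Ikaros and Aiolos in the presence of thalidomide-type drugs. Casein kinase 2 phosphorylates Ikaros and protein phosphatase 1 reverses it. Of 13 genes tested, 1 was higher, 3 were lower and 9 were not called (median log2 fold change -0.09). Beside these counts, 6.77% of all genes tested were called as higher and 9.74% as lower. Ddb1 was at 465, 393 and 369 CPM in SF1 and at 649 and 587 CPM in WT, a fall of 1.51-fold (SE of the log2 fold change 0.10, edgeR adjusted p = 0.00608). Cul4b fell 1.35-fold (edgeR adjusted p = 0.016) and Ppp1cb, a catalytic subunit of protein phosphatase 1, fell 1.32-fold (edgeR adjusted p = 0.0123). Csnk2a2, a catalytic subunit of casein kinase 2, rose 1.60-fold (edgeR adjusted p = 0.0214). Crbn itself was at 53.5, 60.3 and 63.0 CPM in SF1 and at 64.4 and 60.6 CPM in WT (edgeR adjusted p = 0.634). Without WT replicate 1 the calls of Cul4b (0.0788), Ppp1cb (0.0953) and Csnk2a2 (0.169) were lost, as were all 3 without SF1 replicate 2 (0.0518, 0.0546 and 0.0567). Those of Cul4b and Csnk2a2 were lost without SF1 replicate 3 (0.0561 and 0.0759) or under the replicate block, a fit that adds the replicate number (0.0718 and 0.0677), and that of Cul4b without WT replicate 2 (0.0564).

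Genes described as activated by Ikaros in lymphoid cells also went both ways. Of 12, 11 were tested and 2 were higher, among them Il7r of the sort, 3 lower (Rag1, Foxo1 and Cd79b) and 6 not called, with a median log2 fold change of 0.10. Among all genes tested, 6.77% were called as higher and 9.74% as lower. The gene of this list that was not tested is Ikzf3, itself a member of the family. Il7r, the receptor gene for interleukin 7, was at 465, 421 and 431 CPM in SF1 and at 331 and 371 CPM in WT, 1.25-fold higher (edgeR adjusted p = 0.0318). Foxo1, a transcription factor of early B cells, was at 88.5, 60.7 and 74.3 CPM in SF1 and at 156 and 104 CPM in WT, 1.76-fold lower (edgeR adjusted p = 0.0185). The antigen receptor chain gene Cd79b fell 1.41-fold (edgeR adjusted p = 0.0182) and the recombinase gene Rag1 fell 2.00-fold (edgeR adjusted p = 0.0199). Leaving out SF1 replicate 2 or 3 left 0 activated targets called by edgeR, with 5 and 6 at an unadjusted p under 0.05, and leaving out WT replicate 1 left 1. With all libraries, DESeq2 and limma voom each called 5, but Rag1 was not among those of DESeq2 (DESeq2 adjusted p = 0.0533).

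Among genes described as repressed by Ikaros, those called by edgeR were lower. Of 15, 14 were tested by edgeR, with 6 lower, 8 not called and none higher, and a median log2 fold change of -0.54. Over all genes tested, 9.74% were called as lower. At an unadjusted p under 0.05, 7 were lower and 1 higher, and DESeq2 and limma voom each called 6 lower and none higher. With scaling by library totals alone, or without WT replicate 2, 1 gene was called as higher beside 6 lower. Myc, a growth regulator, was at 558, 369 and 387 CPM in SF1 and at 786 and 820 CPM in WT, 1.83-fold lower (edgeR adjusted p = 0.00663). Ccnd3, the D-type cyclin of dividing pre-B cells, was at 495, 487 and 516 CPM in SF1 and at 790 and 687 CPM in WT, 1.48-fold lower (edgeR adjusted p = 0.00262). Igll1, a surrogate light chain gene, fell 1.83-fold (edgeR adjusted p = 0.00241), and Nrarp, a Notch target and inhibitor, fell 2.86-fold (edgeR adjusted p = 0.00189). Dntt, the terminal transferase gene, was at 4885 to 5374 CPM in SF1 and at 4985 and 5144 CPM in WT (edgeR adjusted p = 0.864). The calls of Myc, Ccnd3, Igll1 and Nrarp were kept in all 14 alternatives. Without SF1 replicate 2 or SF1 replicate 3, 4 genes of the list were called, all as lower. The calls lost were those of Vpreb1 (edgeR adjusted p = 0.108 and 0.0914) and the integrin gene Itga5 (0.091 and 0.0854). The GC and length correction also lost the Itga5 call (0.0844). Without WT replicate 1 the calls of Vpreb1 and Itga5 were lost as well. Their log2 fold changes were -0.54 and -0.41 there, against -0.70 and -0.61 with all libraries. Igll1 and Vpreb1 of this list, and Rag1, Blnk and Cd79b of the activated list, are also B-lineage markers. Of 11 B-lineage markers tested, 8 were lower (5 without SF1 replicate 2, without SF1 replicate 3 or without WT replicate 1, against 9.74% of all genes with all libraries), with a sum of 1062 to 1496 CPM in SF1 and 1751 to 2008 CPM in WT, and the part of B-lineage cells in these differences was not tested.

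**Figure D4:**
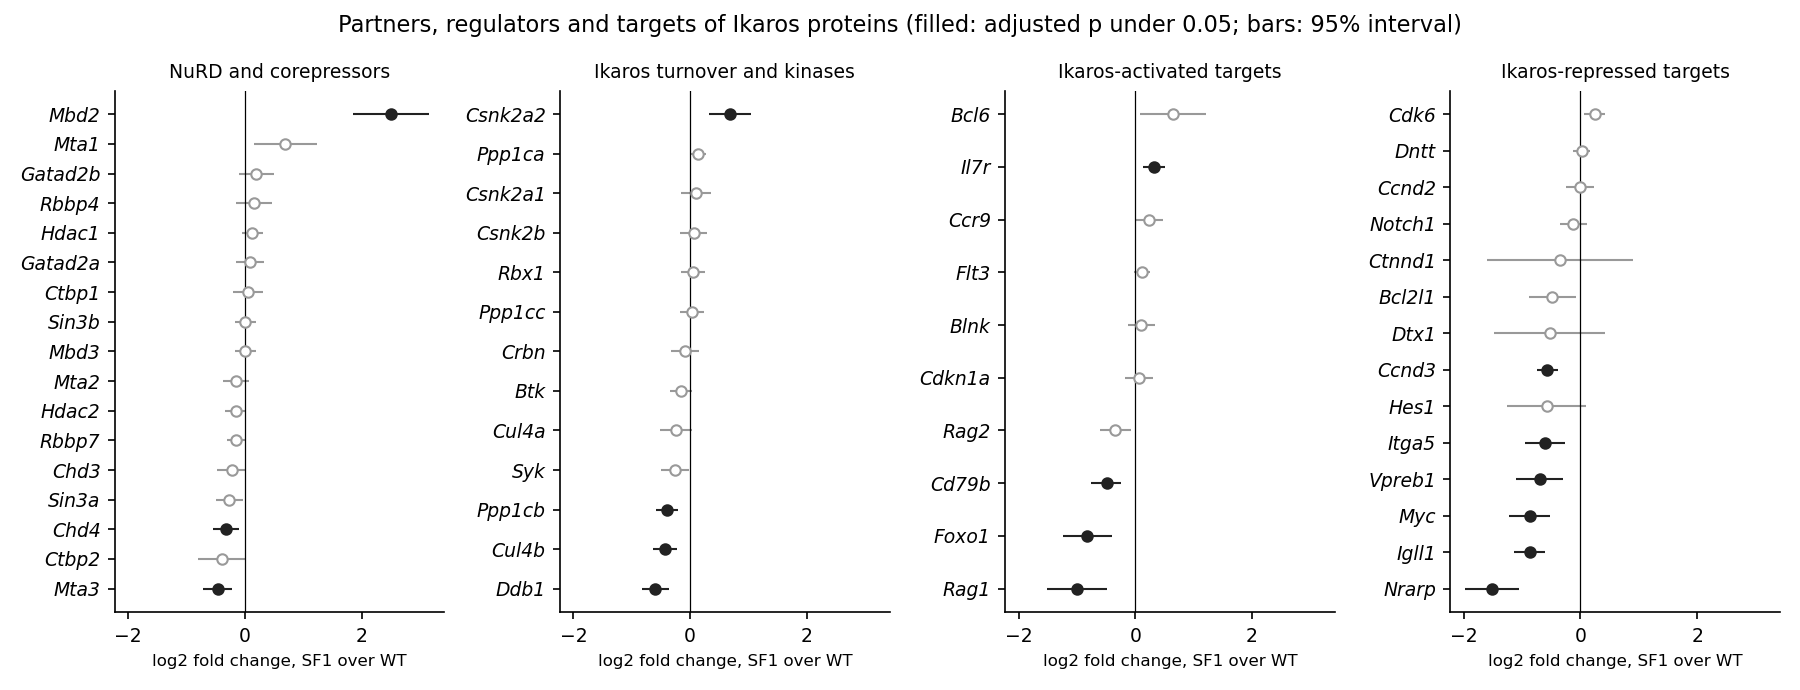
Log2 fold change of SF1 over WT with 95% interval for partners, regulators and described targets of Ikaros proteins, 1 panel per list, with 1 tested gene not shown. Filled points have an edgeR adjusted p under 0.05. Mbd2 stands at 2.50, the other NuRD and corepressor genes lie between -0.47 and 0.69, and all 6 filled points of the repressed targets lie below 0.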

How the data were processed

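RNA-seq counts of 5 CLP libraries, 3 SF1 and 2 WT, were used. The authors deposited raw counts per gene, made with HISAT2 2.2.1 and featureCounts 2.0.1 on GRCm38, per the submitters' processing notes. The sources used here do not state the annotation release, the strand setting or the handling of multiply mapped reads. Per the labels' protocols, SMART-Seq (version 2 or 4) and Nextera XT were used on PicoPure-isolated RNA. This chemistry has no molecular identifiers, so intervals and floors cover counting error only. GENCODE M21 matched 55227 of 55487 identifiers, and the other 260 hold 0.0123% of counts.

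edgeR 4.0.16 (R 4.3.3) was run on all genes with TMM scaling, filterByExpr (minimum count 10), the quasi-likelihood F test without covariates and Benjamini-Hochberg adjustment (threshold 0.05). SE comes from the F statistic. It was tested on simulated counts. RPKM uses merged exon length. Alternatives used DESeq2 1.42.0, limma 3.58.1, other scaling and filters, thinning, GC and length correction and subsets of libraries. Within groups, chi-square per degree of freedom was 6.89 to 9.55, more than counting error alone gives. No library was therefore the same library sequenced again. Separate libraries from a single mouse cannot be told from separate mice this way.

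The members and gene lists were chosen with earlier results of these data known. Genes named are the members, Jak2, the sort genes, up to 4 per list with the smallest p, the 3 nearest profiles per member, and overlapping or adjacent genes. Others (Mbd3, Crbn, Dntt, Mpo, Itga5, Cd3e, Ms4a1, Bcl11b, Vpreb1, Blnk, Tfrc, T-lineage genes in the closing section, and markers at 0) were chosen after their values were seen. Some genes and sequences are not reported here.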

Additional observations from a re-analysis of the deposited data

How the results depend on the processing

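The Ikzf2 rise kept its direction in 14 of 14 alternatives and its call in 13, with edgeR, DESeq2 or limma adjusted p-values from 6.36e-05 to 0.0696. The number of members called was 0 without WT replicate 1 and 1 in the other subsets, and 1 had an unadjusted p under 0.05 there. In that subset, and in the one without WT replicate 2, the lone WT library is assumed to vary like the SF1 libraries. Ikzf1 and Ikzf5 were called in none of 14 (adjusted p from 0.569 to 0.98 and from 0.311 to 0.919), and Ikzf1 was at 0.01 without WT replicate 2. With no filter, neither Ikzf3 nor Ikzf4 was called. Over all genes, 2382 were called, between 986 (without WT replicate 1) and 2170 when a library was left out, and 1519 under the replicate block, a fit with the replicate number as a term. Same-numbered libraries are not known to be paired (correlations of their deviations 0.049 and 0.067), and Ikzf2 stayed called under the block (1.05, adjusted p = 0.0211). The Ikzf2 share differed by 1.16 to 1.48 percentage points over subsets. List counts moved by over 1.5 times in these cases. The NuRD and corepressor list had 5 called with no filter against 3. The turnover and kinase list had 2 with the block, and 1, 2 and 1 without SF1 replicate 2, SF1 replicate 3 and WT replicate 1, against 4. The activated targets had 3 with the block against 5. B-lineage markers had 5 against 8 in each of those 3 subsets. Without WT replicate 1, dendritic markers had 2 against 6, stem markers 1 against 3, innate lymphoid markers 1 against 2 and CLP genes 2 against 4. Megakaryocyte markers had 0 under 5 settings against 1. T-lineage markers had 0 without SF1 replicate 2 or 3 and 2 under 6 other settings, against 1. The cause of these shifts was not tested. With the stricter filter, 3 erythroid markers in place of 10 were left to test, of which 2 were called against 6, and no megakaryocyte marker was. With 2 WT libraries and counts of 0 to 6, depth limits Ikzf3 and Ikzf4.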

Other observations

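Genes beside the members on the chromosome were read from the same fit, as values only. Fignl1, a DNA repair ATPase gene 14505 bases from Ikzf1, was at 169, 167 and 155 CPM in SF1 replicates 1, 2 and 3 and at 210 and 200 CPM in WT replicates 1 and 2, a fall of 0.32 on the log2 scale (edgeR adjusted p = 0.0258). Its call was lost without WT replicate 1 (0.15), SF1 replicate 2 (0.0677) or SF1 replicate 3 (0.087) and under the replicate block (0.103). Gm12000, an antisense gene within Ikzf1 with no shared exon base, had 35 to 56 counts per library (adjusted p = 0.333). Neither neighbour of Ikzf2 was tested, with no count of Erbb4 in any library and 1 to 14 counts of Spag16. Next to the nearly silent Ikzf4, 4096 bases away, the ribosomal protein gene Rps26 was read at 119 to 157 CPM, with an adjusted p = 0.986 for SF1 against WT. Grb7 and Zpbp2, on either side of Ikzf3, had 0 to 3 counts per library. Acadsb, which starts 80 bases from Ikzf5 on the opposite strand, was at 33.0 to 43.3 CPM (adjusted p = 0.711).

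Foxp3, the factor of regulatory T cells in which Helios is known, was listed at 18.9 to 21.3 CPM in SF1 and at 22.6 and 25.5 CPM in WT (edgeR adjusted p = 0.22). Among the other T-lineage markers, Cd3e, Cd3d, Cd3g, Cd8a, Bcl11b and Thy1 ranged from 0 to 1.10 CPM, Cd4, Tcf7, Gata3 and Cd5 from 3.32 to 15.7 CPM, and Lck from 204 to 282 CPM.

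Other marker lists were read in the same fit, in which 6.77% of all genes tested were called as higher and 9.74% as lower. Of 5 genes that define CLPs or were used to sort them, Ly6d, Il7r and Ly6a were higher, Flt3 was not called, and Kit, the stem cell factor receptor gene, was lower, at 212 to 252 CPM in SF1 and at 366 and 315 CPM in WT (edgeR adjusted p = 0.0116, and 0.0932 without WT replicate 1). The Il7r call was lost in 6 of 14 alternatives, with an adjusted p of up to 0.211. Of 12 erythroid markers 10 were tested and 6 were lower, with a summed level of 361 to 425 CPM in SF1 and 379 to 479 CPM in WT. The transferrin receptor gene Tfrc, not called, made up 279 to 321 CPM of the sum in SF1 and 196 to 270 CPM in WT. Of those called, Car1 was at 1.93 to 3.12 CPM in SF1 and at 47.5 and 31.0 CPM in WT (edgeR adjusted p = 0.000117), and Car2 at 71.3 to 93.3 CPM in SF1 and at 133 and 131 CPM in WT (edgeR adjusted p = 0.00465). Of 6 megakaryocyte markers 4 were tested and Pf4 was higher, with a sum of 6.59 to 17.1 CPM in SF1 and 5.89 to 5.92 CPM in WT, and Gp1bb was at 0 in all libraries.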
